A study of Mus musculus with 4 samples.

Results

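The Rgs genes encode regulators of G protein signalling. The 9 members described here (Rgs1, Rgs2, Rgs3, Rgs10, Rgs12, Rgs14, Rgs16, Rgs18 and Rgs19) were taken by gene symbol from the 47561 genes listed for each library. They were selected on their symbols with their FPKM values in these 4 libraries, and the difference between genotypes, already seen. Their levels and genotype differences are therefore given as a description. The RNA came from LSK cells, the Lin-, Sca-1+, c-Kit+ compartment in which blood stem cells and early progenitors lie, isolated by FACS from bone marrow of C57BL/6 mice aged 12 weeks. The Metrn cKO group (genotype label Metrn-cKO, title Metrnf/f LysM) comprised 2 libraries and the Metrn f/f group (labelled wild type) comprised 2 libraries. Both groups carry the floxed Meteorin allele. The labels give LysM as the only further element of the Metrn cKO mice, and LysM drives deletion in myeloid cells such as macrophages and not specifically in the LSK cells that were sequenced. The series title places the question there: how Meteorin of macrophages acts on stem and progenitor cells.

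A receptor of the G protein coupled class, once bound by a chemokine or another ligand, loads the G alpha subunit with GTP, and G alpha and G beta-gamma then signal separately. An RGS protein binds the GTP-loaded G alpha subunit through its RGS box and speeds GTP hydrolysis, so the signal ends sooner. In blood cells this class of protein limits responses to chemokines such as the Cxcr4 ligand, which holds stem cells in the marrow. Rgs1, Rgs2, Rgs3, Rgs16 and Rgs18 belong to the R4 subfamily, most of whose members are small proteins that consist of little beyond the RGS box. Rgs10, Rgs12 and Rgs14 form the R12 subfamily, of which Rgs12 and Rgs14 also carry Ras-binding and GoLoco domains. Rgs19, also known as GAIP, belongs to the RZ subfamily.

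The 2 members whose genotype groups did not overlap, Rgs1 and Rgs2, lie in the same stretch of mouse chromosome 1. On the GRCm38 assembly, Rgs2 (ENSMUSG00000026360.9) spans positions 143999338 to 144004161 and Rgs1 (ENSMUSG00000026358.13) spans 144242296 to 144249242, both on the minus strand. Rgs18 (ENSMUSG00000026357.3) lies farther along the same strand at 144752683 to 144775435. RefSeq promoter windows matched 6 of the 9 members by symbol (all but Rgs1, Rgs14 and Rgs18). The stretch upstream of the Rgs2 start is shown because Rgs2 lay lower in both Metrn cKO libraries, and that of Rgs12 because its libraries stood in a different order. Both are from the GRCm38.p6 windows of RefSeq, ended before the first annotated transcribed base, with each match to TGACG, the core of the cyclic AMP response element (CRE), in capitals on either strand. The first is chr1:144004162-144004399 (minus strand) and the second is chr5:34949198-34949444 (plus strand).
Rgs2: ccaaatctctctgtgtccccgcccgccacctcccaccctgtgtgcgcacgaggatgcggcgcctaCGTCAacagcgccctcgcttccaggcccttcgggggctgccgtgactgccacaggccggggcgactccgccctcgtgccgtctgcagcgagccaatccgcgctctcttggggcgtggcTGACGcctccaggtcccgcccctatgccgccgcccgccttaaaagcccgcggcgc
Rgs12: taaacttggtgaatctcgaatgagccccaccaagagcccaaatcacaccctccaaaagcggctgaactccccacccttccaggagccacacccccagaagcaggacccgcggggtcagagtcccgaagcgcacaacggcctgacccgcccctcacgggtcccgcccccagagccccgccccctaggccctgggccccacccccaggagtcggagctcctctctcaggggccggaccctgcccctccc
The Rgs2 stretch of 238 bases held 2 matches to TGACG, and the Rgs12 stretch of 247 bases held 0. Among all 32851 RefSeq windows of the same kind, which run from 250 bases before to 50 after a start, 20.8% held TGACG. The complete CRE, TGACGTCA, stood in 1.79% of all windows and in none of the 10 member windows. A second Rgs12 window, at an internal start, held 1 TGACG and 1 match to the AP-1 motif TGANTCA, which 7.81% of all windows held. The motifs AAAGGTCA (bound by Nr4a1 and its relatives) and GCGTGGGCG (bound by Egr1) and the CArG box of SRF had 0 matches in the member windows. They stood in only 1.51%, 0.612% and 1.63% of all windows, so their absence from 10 windows says little. The matches above are letters in a window and say nothing of binding in LSK cells.

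Depth and sort were considered before the members. Values were FPKM, that is, fragments per length of transcript and per mapped read of a library. The FPKM values summed to 562401 and 412955 in Metrn cKO 1 and 2 and to 392717 and 671802 in Metrn f/f 1 and 2. Read totals are unknown, so no counting interval is given. Metrn itself had 42.3 and 36.7 FPKM in Metrn cKO and 29.3 and 66.3 FPKM in Metrn f/f. These Metrn groups overlapped, and deletion of the allele was not tested. Lyz2, the gene of the LysM locus, was itself detected, at 2904 and 245 FPKM in Metrn cKO and 290.4 and 2406 FPKM in Metrn f/f. Kit, a sort marker, had 25.9 and 116 FPKM in Metrn cKO 1 and 2 and 108 and 24.8 FPKM in Metrn f/f 1 and 2. The 10 neutrophil markers summed to 58466 and 2023 FPKM in Metrn cKO 1 and 2 and to 2577 and 32574 FPKM in Metrn f/f 1 and 2. Metrn cKO 1 and Metrn f/f 2 therefore held less Kit and more RNA of mature cells than the other libraries, so the libraries sort by these markers across the genotype labels. No value here checks those labels, and each genotype difference below rests on them. Whether any libraries were exchanged was not tested, and an exchange would change the meaning of each of these differences. Ly6a, the gene of Sca-1, had 48.4 and 38.2 FPKM in Metrn cKO 1 and 2 and 37.2 and 83.2 FPKM in Metrn f/f 1 and 2, so both positive sort markers were present in each library. In these bulk samples, fewer cells of a type and less RNA per cell cannot be told apart.

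Of the 9 members, 8 reached at least 1 FPKM in at least 2 libraries and were among the 13148 genes tested. Rgs1 was the most abundant on average (146 FPKM over the 4 libraries), followed by Rgs19 (71.8), Rgs2 (70.7), Rgs18 (32.1), Rgs10 (25.8), Rgs14 (17.1), Rgs12 (8.93) and Rgs3 (6.29). These means run close together against their spread: Rgs1 had a standard deviation of 177 FPKM and Rgs2 one of 62.3 FPKM over the 4 libraries, so neither can be placed apart from Rgs19 (13.7). The ranges of Rgs18, Rgs10 and Rgs14 overlapped from one to the next, as did those of Rgs14, Rgs12 and Rgs3, and only Rgs16 lay apart. Within a library the order was steadier. Rgs1 ranked first in Metrn cKO 2, Metrn f/f 1 and Metrn f/f 2 and only sixth in Metrn cKO 1, where Rgs19 was first. Rgs16 was last in each library and Rgs3 seventh or eighth.

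**Figure D1:**
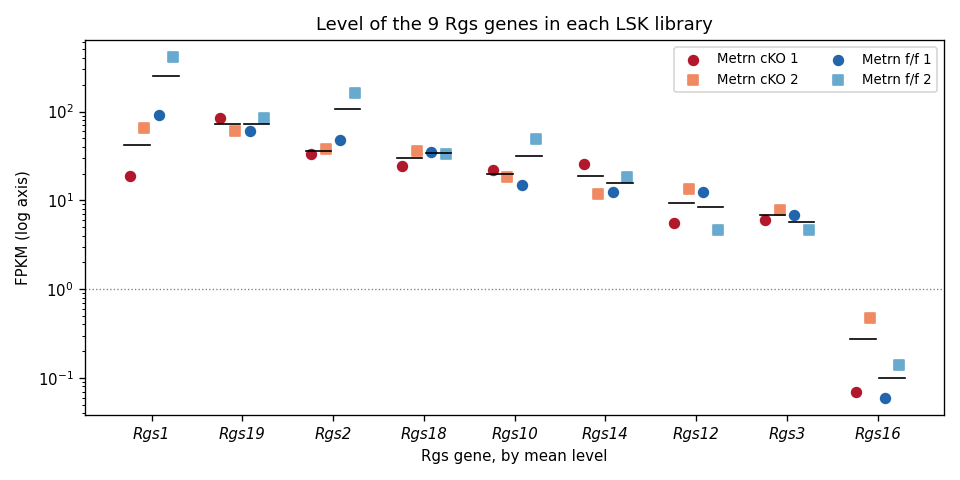
FPKM (log axis) of each Rgs gene in the 4 LSK libraries, ordered by mean level, with a line at each group's mean of 2 libraries and a dotted line at 1 FPKM. Rgs1 spans 18.9 to 409 FPKM, Rgs18 only 24.4 to 36.2, and Rgs16 stays under 1 FPKM in each library.

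Rgs1, the R4 member best known for damping chemokine responses of B and T lymphocytes, showed the widest spread of the family. It had 18.9 and 65.8 FPKM in Metrn cKO 1 and 2, against 91.3 and 409 FPKM in Metrn f/f 1 and 2. The groups did not overlap, but the libraries of each genotype stood far apart. The means were 42.3 ± 33.1 FPKM in Metrn cKO and 249.9 ± 224 FPKM in Metrn f/f (SD, n = 2 each). On the log2(FPKM + 1) scale, which understates changes of low genes, the fold change was -2.41 (SE 0.86). The difference between the Metrn f/f libraries alone was 2.15 on that scale, and that between the Metrn cKO libraries 1.74. Its range over the 4 libraries was wider than that of 99.2% of tested genes.

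Rgs2, an R4 member that acts preferentially on G alpha q and is induced quickly in many cells, followed the same order of libraries. It had 33.1 and 37.8 FPKM in the Metrn cKO libraries, against 48.3 and 164 FPKM in Metrn f/f. The Metrn cKO libraries lay close to each other, and Metrn f/f 2 stood well above the remaining libraries. The means were 35.5 ± 3.32 FPKM in Metrn cKO and 106 ± 81.6 FPKM in Metrn f/f (SD, n = 2 each). The log2 fold change was -1.31 (SE 0.61). The gap between the nearest libraries of the genotypes was small: set against Metrn cKO 2, Metrn f/f 1 had 1.28 times as much Rgs2 and 1.39 times as much Rgs1.

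In the comparison of the 4 libraries with no pairing, no member passed the test over all genes. By limma at an adjusted p of 0.05, 0 of the 13148 tested genes passed upward and 0 downward (0% in each direction), and the adjusted p of each tested member was 1.00. At an unadjusted limma p under 0.05 stood 39 of the 13148 genes, 8 with a positive and 31 with a negative fold change. This share is far below the 0.05 that such a threshold lets pass when no gene differs. Rgs1 was among those 31, but it was picked with its values known, so nothing is read from its place there. With 2 libraries against 2, a 2-sided exact permutation test of a single gene can go no lower than p = 0.333. Rgs1 and Rgs2 were the 2 of 8 tested members whose Metrn cKO values all lay under the Metrn f/f values, a pattern shown by 5.73% of all tested genes, and 0 members lay higher, as 6.31% of all tested genes did. Since the members were picked with these results known, nothing is read from those shares. Metrn f/f 2 carried much of the size. Without it the log2 fold change was -1.34 for Rgs1 and -0.44 for Rgs2, and without Metrn f/f 1 it was -3.49 and -2.18. For Rgs1 it was -1.54 without Metrn cKO 1 and -3.29 without Metrn cKO 2.

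The other R4 members did not share this pattern. Rgs18, abundant in platelets and their precursors, had 24.4 and 36.2 FPKM in Metrn cKO and 34.8 and 33.0 FPKM in Metrn f/f. Its groups overlapped and its range was narrower than that of most tested genes. Rgs3, a larger R4 member, had 5.97 and 7.86 FPKM in Metrn cKO and 6.76 and 4.58 FPKM in Metrn f/f, with overlapping groups. Rgs16, which T cells induce on activation, had 0.0694 and 0.478 FPKM in Metrn cKO and 0.0587 and 0.139 FPKM in Metrn f/f. It did not reach the level for testing in any library. Annotated antisense genes overlap Rgs16, Rgs3 and Rgs12, and the strand setting of the counting is not given. Each overlap covers part of the gene, and within it reads of these 3 members cannot be told from antisense reads. Another annotated gene, Gm15503, overlaps Rgs10 on the same strand over 3374 bases, so reads there may be shared.

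The R12 members each took a different order of libraries. Rgs10, a small member prominent in myeloid cells and microglia, had 21.7 and 18.1 FPKM in Metrn cKO and 14.8 and 48.8 FPKM in Metrn f/f. Metrn f/f 2 alone stood apart: the log2 fold change was -0.43 (SE 0.60) with all libraries and 0.40 without Metrn f/f 2. Rgs12, which joins the RGS box to domains that bind Ras, had 5.58 and 13.3 FPKM in Metrn cKO and 12.3 and 4.60 FPKM in Metrn f/f. The high libraries were Metrn cKO 2 and Metrn f/f 1, the same in which Kit was high. Rgs14, its relative with a GoLoco motif for inactive G alpha i, had 25.7 and 11.9 FPKM in Metrn cKO and 12.5 and 18.4 FPKM in Metrn f/f. Here Metrn cKO 1 and Metrn f/f 2 were the high libraries, the ones rich in neutrophil markers. The genotype groups overlapped for all 3 R12 members, and the log2 fold change was 0.17 (SE 0.66) for Rgs12 and 0.20 (SE 0.52) for Rgs14.

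Rgs19, which acts on G alpha i and takes part in vesicle traffic, was the steadiest member. It had 83.8 and 59.8 FPKM in Metrn cKO and 60.0 and 83.5 FPKM in Metrn f/f. The genotype means were almost equal, at 71.8 ± 17.0 FPKM in Metrn cKO and 71.7 ± 16.6 FPKM in Metrn f/f (SD, n = 2 each). Its high libraries were those of Rgs14, and these were the most alike pair of members, with a distance of 0.45 between their centred log2(FPKM + 1) profiles. Rgs1 and Rgs2 were farther from each other, at 1.59, because Rgs1 stood much lower in Metrn cKO 1 than in Metrn cKO 2 and Rgs2 did not. By this measure Rgs2 lay nearer to Rgs10 (0.93), which also peaked in Metrn f/f 2 but whose genotype groups overlapped.

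**Figure D2:**
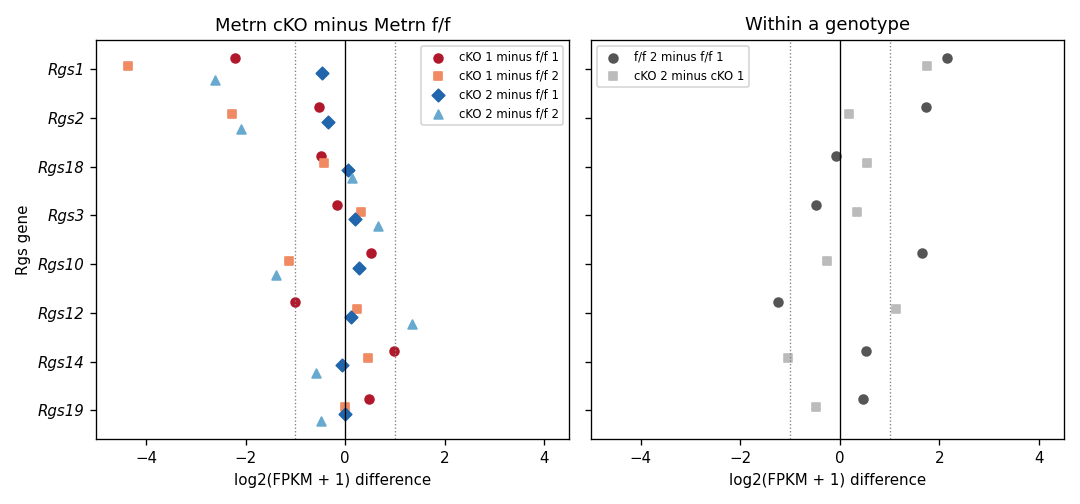
Differences in log2(FPKM + 1) for the 8 tested Rgs genes between single libraries, for the 4 pairs of a Metrn cKO and a Metrn f/f library (left) and the 2 pairs within a genotype (right), with dotted lines at a 2-fold change. All 4 left-hand values of Rgs1 and Rgs2 are below 0, from -4.36 to -0.47 for Rgs1, yet Metrn f/f 2 minus Metrn f/f 1 is 2.15 for Rgs1 and 1.74 for Rgs2.

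The differences varied with the pair of libraries compared. Metrn cKO 2 and Metrn f/f 1 were the most alike libraries though their genotype labels differ, with 0.745% of tested genes at least 2-fold higher and 0.616% at least 2-fold lower in Metrn cKO 2. In that pair 0 of 8 members differed 2-fold. The log2 differences were -0.47 for Rgs1 and -0.35 for Rgs2, against a median of 0.04 for all tested genes. In Metrn cKO 1 against Metrn f/f 1, Rgs1 (-2.21) and Rgs12 (-1.01) were at least 2-fold lower and 0 members higher, where 10.4% of all tested genes were lower and 6.56% higher. Set against Metrn f/f 2, Rgs1, Rgs2 and Rgs10 were at least 2-fold lower in both Metrn cKO libraries. Of all tested genes 6.33% were so in Metrn cKO 1 (7.09% higher) and 12.2% in Metrn cKO 2. Rgs12 was the 1 member at least 2-fold higher in Metrn cKO 2 when set against Metrn f/f 2, as were 23.8% of all tested genes.

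Libraries of the same genotype differed as widely. In Metrn f/f 2 against Metrn f/f 1, the same Rgs1, Rgs2 and Rgs10 were at least 2-fold higher and Rgs12 lower, against 13.7% (higher) and 21.9% (lower) of all tested genes. In Metrn cKO 2 against Metrn cKO 1, Rgs1 and Rgs12 were at least 2-fold higher and Rgs14 lower, where 12.4% of all tested genes were higher and 6.72% lower. Rgs1 and Rgs12 thus passed 2-fold within both genotypes, and Rgs3, Rgs18 and Rgs19 passed it in none of the 6 pairs.

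Summed over the 9 members, the FPKM came to 219 and 251 in the Metrn cKO libraries and to 281 and 765 in the Metrn f/f libraries. Rgs1 supplied 8.64% and 26.2% of this sum in Metrn cKO 1 and 2, against 32.5% and 53.4% in Metrn f/f 1 and 2. Rgs19 supplied 38.2% and 23.8% in Metrn cKO and 21.4% and 10.9% in Metrn f/f. The makeup of the family therefore leaned to Rgs19 in Metrn cKO 1 and to Rgs1 in Metrn f/f 2. The R4 members together held 37.6% and 59.0% in Metrn cKO and 64.5% and 79.7% in Metrn f/f.

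Position in the genome was not used to pick the members. The stretch from Rgs2 to Rgs18 covers 776 kb and holds 5 protein-coding genes in GENCODE, all of them Rgs genes on the minus strand. Between the expressed Rgs2, Rgs1 and Rgs18 lie Rgs13, listed at 0.0183 FPKM in Metrn cKO 1 and at 0 in the other libraries, and Rgs21, listed at 0 in all of them. Rgs18, at the far end, did not follow Rgs1 and Rgs2. Uchl5, the nearest measured neighbour outside the stretch on the Rgs2 side and a proteasome-bound deubiquitinase gene, had 40.0 and 33.5 FPKM in Metrn cKO and 36.3 and 46.0 FPKM in Metrn f/f. Rgs16 lies elsewhere on chromosome 1, and the other members are on chromosomes 2 (Rgs19), 4 (Rgs3), 5 (Rgs12), 7 (Rgs10) and 13 (Rgs14).

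**Figure D3:**
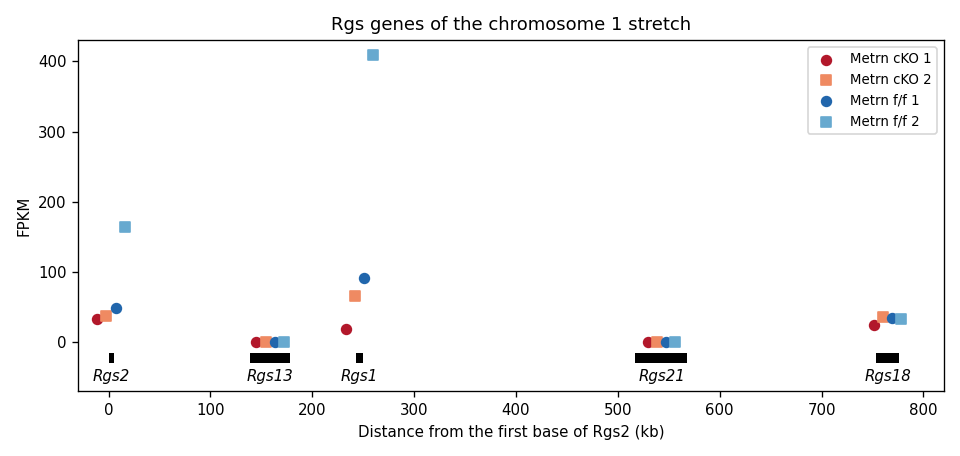
FPKM of the 5 Rgs genes of the chromosome 1 stretch in each library, placed by distance in kb from the first base of Rgs2, with bars for the gene bodies. Rgs2 reaches 164 FPKM and Rgs1 409 FPKM in Metrn f/f 2, their highest library, while Rgs18 stays between 24.4 and 36.2 FPKM and Rgs13 and Rgs21 sit at the baseline.

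The 3' UTRs were compared as a feature outside the measurements, since AUUUA pentamers mark many short-lived transcripts. In the GENCODE coding transcript with the longest 3' UTR, Rgs1 held 10 copies of ATTTA in 3009 bases, or 3.32 per kb. Rgs2 held 5 in 2345 bases (2.13 per kb), Rgs18 5 in 1132 bases (4.42 per kb) and Rgs16 4 in 1616 bases (2.48 per kb). The median over 10610 tested genes with a 3' UTR of at least 100 bases was 1.34 per kb. Rgs10, Rgs12 and Rgs14 held 0, Rgs3 and Rgs19 1 each. Rgs18 had the highest density and the steadiest level of the R4 members above 1 FPKM. The longer motif TTATTTA followed by 2 bases of A or T gave another order. Rgs1 and Rgs16 held 2 copies each, Rgs2 held 1, and the other members, Rgs18 among them, held 0. That motif stood in 17.9% of the 10610 tested genes. How these motifs relate to the spread across libraries was not tested.

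Other Rgs genes were close to absent. Of 15 further genes of the family and its binding proteins, 4 were listed at 0 in all libraries and 3 reached 1 FPKM in any library. Rgs8, an R4 gene known from brain, had 1.12 and 2.08 FPKM in Metrn cKO and 0.932 and 0.253 FPKM in Metrn f/f, with groups that did not overlap. Rgs11, an R7 gene of the nervous system, had 0.205 and 1.48 FPKM in Metrn cKO and 1.19 and 0.305 FPKM in Metrn f/f. Rgs7bp, which anchors R7 proteins at the membrane, had 0.289 and 0.919 FPKM in Metrn cKO and 1.14 and 0.0872 FPKM in Metrn f/f. Rgs8 and Rgs11 were tested and did not pass, and both lay above Rgs16. Annotated genes on the opposite strand overlap part of both, and reads within those overlaps cannot be told from antisense reads either.

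The tested G alpha subunits, on which RGS proteins act, each differed less between libraries than Rgs1 and Rgs2 did. Of 16 genes 10 were tested, 0 passed in either direction, and the median log2 fold change was 0.18 against 0.07 over all tested genes. Gnai2, the main inhibitory subunit of blood cells and a target of most R4 proteins, had 387 and 286 FPKM in Metrn cKO and 280 and 287 FPKM in Metrn f/f. Gnas, the stimulatory subunit, had 299 and 248 FPKM in Metrn cKO and 232 and 265 FPKM in Metrn f/f, and Gnai3 had 49.6 and 48.3 FPKM in Metrn cKO and 50.9 and 32.1 FPKM in Metrn f/f. Gnai2 thus exceeded each Rgs gene in each library except Rgs1 in Metrn f/f 2. Gna13 lay lower in both Metrn cKO libraries (log2 fold change -0.44, SE 0.41), and Gna12 and Gna11 lay higher (0.30, SE 0.40, and 0.32, SE 0.50). Of the 10 tested, Gnaq had the widest range on the log2(FPKM + 1) scale, 1.44, against 1.35 for Rgs12. Its level was 5.99 and 9.09 FPKM in Metrn cKO and 8.90 and 2.73 FPKM in Metrn f/f.

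Among G beta and gamma subunits, 10 of 17 were tested and 0 passed, with a median of -0.16. Gnb2 had 233 and 177 FPKM in Metrn cKO and 146 and 255 FPKM in Metrn f/f. Gng5 had 198 and 107 FPKM in Metrn cKO and 111 and 348 FPKM in Metrn f/f. Gnb1 was the only one of the 10 tested whose groups did not overlap, with 84.2 and 66.7 FPKM in Metrn cKO and 63.2 and 66.1 FPKM in Metrn f/f.

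Receptor kinases and arrestins, which act on the receptor itself, had 6 of 8 genes tested, 0 passing, and a median of 0.41. Grk2 had 169 and 140.5 FPKM in Metrn cKO and 135 and 97.4 FPKM in Metrn f/f, so its groups did not overlap, as was also so for Grk5 (1.71 and 2.15 FPKM in Metrn cKO, 1.56 and 1.08 in Metrn f/f). Arrb2 had 137 and 46.0 FPKM in Metrn cKO and 44.1 and 83.7 FPKM in Metrn f/f, and Grk6 had 80.7 and 57.8 FPKM in Metrn cKO and 58.0 and 39.5 FPKM in Metrn f/f. Of 15 other G protein regulators 13 were tested and 0 passed (median 0.27). Among them the log2 fold change was 0.27 (SE 0.53) for Gpsm3, a GoLoco gene of blood cells, and 0.11 (SE 0.39) for the chaperone gene Ric8a. Of 10 adenylyl cyclases 4 were tested and 0 passed (median 0.33). Adcy7, the most abundant, had 26.1 and 44.0 FPKM in Metrn cKO and 41.5 and 13.9 FPKM in Metrn f/f, and the log2 fold change was 0.14 (SE 0.86) for Adcy6 and 0.22 (SE 0.61) for Adcy3.

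Of 39 receptors of the G protein coupled class, 33 were tested and 0 passed, with a median of 0.04. Cxcr4, the marrow homing receptor, had 142 and 47.3 FPKM in Metrn cKO and 53.8 and 111 FPKM in Metrn f/f. Metrn cKO 1, its highest library, was the lowest for Rgs1, and Metrn f/f 2, its next highest, was the highest for Rgs1. Adgrg1, an adhesion receptor of stem cells, had 128 and 420.5 FPKM in Metrn cKO and 406 and 133 FPKM in Metrn f/f, and Ltb4r1, a leukotriene receptor of neutrophils, had 80.3 and 17.6 FPKM in Metrn cKO and 18.7 and 48.0 FPKM in Metrn f/f. S1pr1, the egress receptor for sphingosine phosphate, was the one receptor lower in both Metrn cKO libraries, at 2.25 and 2.76 FPKM in Metrn cKO and 3.98 and 4.85 FPKM in Metrn f/f. Ptgir, Ptger2, Ccr9, Hrh2 and P2ry1 lay higher in both.

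**Figure D4:**
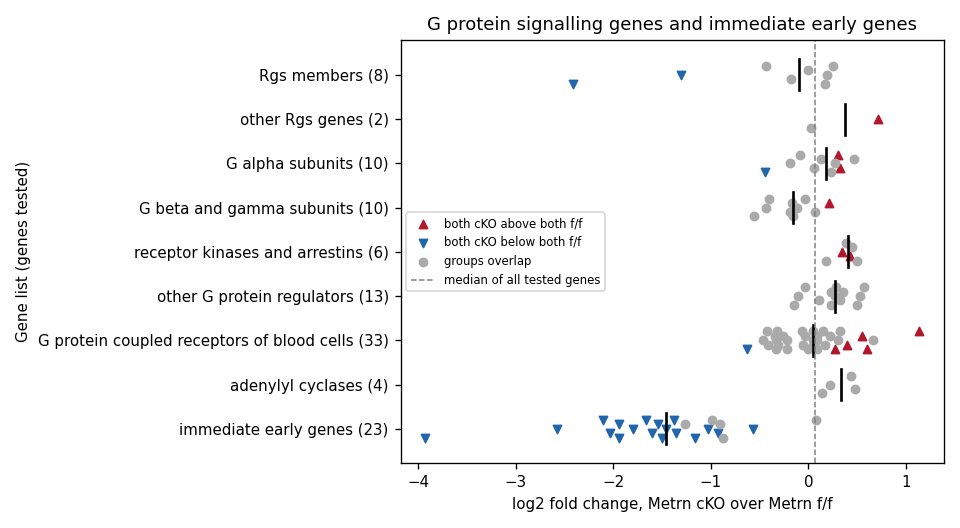
Log2 fold change (Metrn cKO over Metrn f/f) of each tested gene by list, with a black line at the list's median and a dashed line at the median of all tested genes, 0.07. Rgs1 (-2.41) and Rgs2 (-1.31) lie outside the spread of the other G protein signalling lists and within that of the immediate early genes, whose median is -1.46.

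Immediate early genes are induced within minutes of a stimulus such as signalling or handling. None of the 23 tested of 27 passed, and 18 lay lower in each Metrn cKO library, with 0 higher. Their summed level was 1133 and 1808 FPKM in Metrn cKO and 2488 and 5585 FPKM in Metrn f/f, which is the order that Rgs1 and Rgs2 take. That order, with Metrn f/f 2 above Metrn f/f 1, then Metrn cKO 2, then Metrn cKO 1, was taken by 14 of the 23 immediate early genes, by 2 of the 8 tested members and by 2.78% of all tested genes. These lists were made with earlier results known, and the part of handling or of stimulation in the Rgs1 and Rgs2 levels was not tested. Fos, a subunit of AP-1, had 174 and 288 FPKM in Metrn cKO and 391 and 873 FPKM in Metrn f/f. Nr4a1, an orphan nuclear receptor, had 5.37 and 9.83 FPKM in Metrn cKO and 74.7 and 210.2 FPKM in Metrn f/f, a wider gap between the genotypes than that of Rgs1.

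The genes most like a member were found among 8919 tested genes with a mean of at least 4 FPKM, by the distance between centred log2(FPKM + 1) values over the 4 libraries. With 4 values per gene, many genes can lie close by chance. Nearest to Rgs1 were Ier3, an early response gene, at a distance of 0.55, and the chemokine genes Ccl3 (0.72) and Ccl4 (0.88). Ccl3 had 22.6 and 49.4 FPKM in Metrn cKO and 59.8 and 255 FPKM in Metrn f/f, against the same order and a still wider spread for Rgs1. Nearest to Rgs2 were the phosphatase gene Dusp5 (0.24), the erythroid factor gene Gata1 (0.31) and Junb (0.31), another AP-1 subunit. Nearest to Rgs10, the third most variable member, were the ribosomal protein gene Rpl35a (0.06), the proton pump subunit gene Atp6v1f (0.07) and S100a10 (0.08). The level of Rpl35a is uncertain, since pseudogene copies may take or lend reads.

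**Figure D5:**
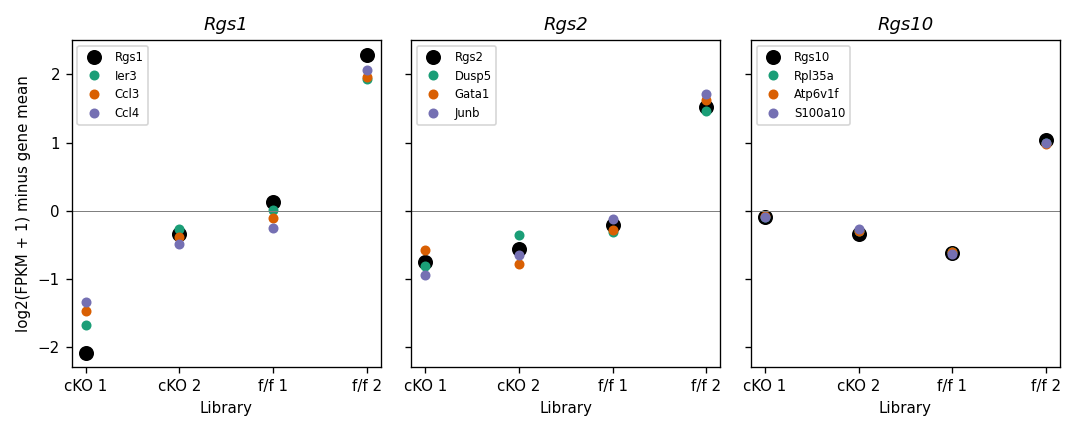
Centred log2(FPKM + 1) in the 4 libraries for Rgs1, Rgs2 and Rgs10 (large black points) and the 3 tested genes nearest to each. All 3 members peak in Metrn f/f 2, Rgs1 and Rgs2 are lowest in Metrn cKO 1, and Rgs10 is lowest in Metrn f/f 1.

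Markers of other cells moved between the libraries, and their part in the members' levels was not tested. The 12 macrophage and monocyte markers were all measured above 0 in each library. They summed to 380 to 1174 FPKM in Metrn cKO and 428 to 1895 FPKM in Metrn f/f. Their sum was highest in Metrn f/f 2, and 9 of the 12 markers peaked there. Rgs1, Rgs2 and Rgs10, 3 of the 8 tested members, also peaked there, as did 29.8% of all tested genes. Ly6c2, Ccr2 and Cx3cr1 were highest in Metrn cKO 1, where Ly6c2 alone had 944 FPKM. The 10 erythroid markers summed to 3219 to 31494 FPKM in Metrn cKO and 3982 to 37637 FPKM in Metrn f/f. The 10 megakaryocyte and platelet markers summed to 32.9 to 84.1 FPKM in Metrn cKO and 77.7 to 113 FPKM in Metrn f/f. The 10 B and plasma cell markers summed to 259 to 4422 FPKM in Metrn cKO and 202 to 1223 FPKM in Metrn f/f. Their sum was highest in Metrn cKO 1, where Rgs1 was lowest, and next highest in Metrn f/f 2, where Rgs1 was highest. Of the B and plasma cell markers, Ms4a1 was at 0 in Metrn cKO 2. The 10 T and NK cell markers summed to 165 to 209 FPKM in Metrn cKO and 165 to 285 FPKM in Metrn f/f, with Cd3e and Cd3g at 0 in Metrn cKO 2 and Cd3d at 0 in Metrn f/f 1. The 8 markers of eosinophils, basophils and mast cells summed to 262 to 1562 FPKM in Metrn cKO and 185 to 1999 FPKM in Metrn f/f. This sum and those of the erythroid, megakaryocyte and platelet, and T and NK cell markers were also highest in Metrn f/f 2. The 10 sort and stem cell markers summed to 304 to 816 FPKM in Metrn cKO and 424 to 699 FPKM in Metrn f/f.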

How the data were processed

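RNA-seq of LSK cells in 2 Metrn cKO and 2 Metrn f/f libraries was analysed from 1 table per library. The deposited values were taken as FPKM: they had decimals, were never negative and had different sums, while the headers name only the library. Per the submitters' processing notes, DESeq2 2.11.40.6, featureCounts 1.6.4, HISAT2 2.1, cutadapt 1.16.5, bcl2fastq 2.19 and the build mm10 were used, with no role stated. The annotation, any use of strand and the origin of the FPKM were not given in the sources used here. Whole reads could not be recovered: among values under 0.3 FPKM no ratio between 2 libraries recurred in over 0.305% of genes. FPKM are shares of a library, so abundant transcripts lower the rest.

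The 13148 genes that reached 1 FPKM in 2 or more libraries were fitted with limma 3.58.1 in R 4.3.3 on log2(FPKM + 1), with an intensity trend, 2-sided, Benjamini-Hochberg over all tested genes, threshold 0.05. SE is limma's moderated error. The planned count test did not apply to FPKM. The code of the fit was run on simulated data with independent noise, narrower than the spread of Rgs1 within a genotype. That run does not measure the power of the fit in these libraries. Coordinates are from GENCODE M21 (GRCm38, called mm10); promoters are from RefSeq (GRCm38.p6).

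Members and gene lists were chosen with earlier results of these data known. Named genes are the members, the 3 most abundant of each list, list genes with groups that do not overlap and a mean of at least 4 FPKM, other Rgs genes at 1 FPKM or more, and the 3 genes nearest to each of the 3 most variable members. The receptors with groups that do not overlap, Grk5, Gnaq, Rgs13, Rgs21, Uchl5, the B and T cell genes and the sort markers were named after their values were seen. Several immediate early genes that the rule allows are given only by count. One result is not reported here.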

Additional observations from a re-analysis of the deposited data

How the results depend on the processing

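The counts of genes past the threshold, 0 higher and 0 lower in Metrn cKO, were unchanged with a pseudocount of 0.1 or 0.5, with no filter on low values and with libraries scaled to the same sum, the same median or the same quantiles. With each library left out in turn, they ranged from 0 to 32 higher and from 0 to 5 lower: 32 higher and 2 lower without Metrn cKO 2, and 5 lower without Metrn cKO 1; the cause was not tested. With the replicate number as a block 3 genes were higher and 1 lower, none of them a member. Same-numbered libraries deviated in opposite directions from their group means (correlation -0.708 across 13148 genes). With 2 libraries per group, crossed numbers give the same value with its sign turned. The check therefore cannot decide whether the numbers pair the libraries. With the numbers crossed, a pairing chosen after seeing the data, 37 genes were higher and 65 lower, and Rgs1 was the only member among them. The scaling to one sum moved the median log2 fold change of all genes to 0.15. Over the pseudocounts, filter and scalings, the log2 fold change stayed between -2.53 and -2.17 for Rgs1 and between -1.42 and -1.12 for Rgs2. With libraries left out it stayed below 0, from -3.49 to -1.34 for Rgs1 and from -2.18 to -0.44 for Rgs2, and Rgs3 ranged from 0.018 to 0.49. It changed sign for Rgs10 (-1.26 to 0.40), Rgs12 (-0.45 to 0.79), Rgs14 (-0.33 to 0.72), Rgs18 (-0.46 to 0.092) and Rgs19 (-0.24 to 0.24). In Metrn cKO 2 against Metrn f/f 1 alone, a comparison added after seeing the data, the sign turned for Rgs10 (0.27), Rgs14 (-0.065), Rgs18 (0.054) and Rgs19 (-0.0053). Scaled to the same median, Rgs19 turned to -0.11. The DESeq2 alternative was not run because the values are no counts. Depth is unknown, and 2 libraries per genotype limit the precision.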
